A study of Homo sapiens with 6 samples.

Results

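The 9 genes described here set or mark the identity of the intestinal epithelium. They are the transcription factors CDX1, CDX2, HNF4A, GATA6, ELF3, KLF5 and SOX9, the brush border protein VIL1 and the epithelial adhesion molecule EPCAM. They were taken by their GENCODE v29 symbols. Of the 9 genes, 6 had at least 1 row in the count table analysed here, among 18750 genes with a row, and 25 of the 43 annotated transcripts of the 9 genes had a row. CDX1, CDX2 and VIL1 had none.

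The samples were cultures of HCT116, an established human colorectal cancer cell line, whose RNA was sequenced in paired-end libraries. One group of 3 replicates was transfected with a short interfering RNA against the long non-coding RNA AC010789.1 (si-AC010789.1), and the other group of 3 replicates received a negative control (siRNA-NC). Both groups were the same line without any other alteration named in the labels, and both were transfected with Lipofectamine. The knockdown was transient and rested on 1 siRNA, and the time from transfection to RNA extraction is not given in the sources used here. The labels number the replicates without saying how they were made, and the study speaks of biological repeats from cells of differing generations, so the p-values measure the spread between such repeats of 1 line. The level of AC010789.1 itself was not analysed here. The study describes a separate check of the knockdown in the sequenced samples, whose values are not used here.

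In the gut, CDX2 and CDX1 are homeobox factors that specify and hold the intestinal fate of the epithelium. HNF4A and GATA6 act with them on the genes of absorptive cells, whereas KLF5 and SOX9 are best known from the proliferating cells of the crypt. ELF3 is an ETS factor of differentiating epithelia, villin (VIL1) bundles actin in the microvilli, and EPCAM is the surface glycoprotein by which epithelial cells are commonly recognised.

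The sequences that separate annotated forms of HNF4A and KLF5 are shown first, because the counts of both genes were assigned to particular annotated starts. HNF4A has a P1 promoter, used in adult liver and gut, and an upstream P2 promoter. The first 45 coding bases of 4 annotated transcripts (GENCODE v29, GRCh38, plus strand) show how their proteins begin, with the start codon in capitals. HNF4A-201 starts at P1 (chr20:44401373-44401417, exon 1) and HNF4A-202 at P2 (chr20:44355805-44355849, exon 1). KLF5-201 starts in exon 1 of KLF5 (chr13:73059328-73059372) and KLF5-205 in its own exon 2 (chr13:73061873-73061917).
HNF4A-201: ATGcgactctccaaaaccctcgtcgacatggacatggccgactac
HNF4A-202: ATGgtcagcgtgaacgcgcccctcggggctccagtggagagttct
KLF5-201: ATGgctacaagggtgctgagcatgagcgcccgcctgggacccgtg
KLF5-205: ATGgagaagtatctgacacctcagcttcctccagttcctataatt
The coding sequence of KLF5-205, 366 codons long, was the in-frame end of that of KLF5-201, which has 457 codons and so carries 91 more at its start. HNF4A-201 has 474 codons and HNF4A-202 has 452.

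The libraries held between 11277222 and 13443866 counts, and 3 counts equalled from 0.223 to 0.266 CPM. CPM are counts put on a common library size with TMM factors. Across 13750 genes tested with the quasi-likelihood test of edgeR, 135 had a Benjamini-Hochberg adjusted p-value under 0.05 (39 higher and 96 lower with si-AC010789.1), or 0.982% of genes tested. That number was 528 with DESeq2, 69 with no filter and 0 with the replicate number as a block, and it lay between 12 and 37 when any 1 of the 6 libraries was left out. Where CPM of the groups did not overlap, 25.1% of genes tested qualified, and 12.9% were lower with si-AC010789.1 in that way. The median log2 fold change of all genes tested was near 0, and 49.9% of genes were fitted higher.

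Expression levels of the 6 genes spanned a wide range when set per length as TPM (computed from the counts and the annotated transcript lengths). KLF5 was highest at a mean of 131 TPM over the 6 libraries, rank 1321 of 18750 genes, followed by ELF3 at 60.5 TPM, rank 3157. SOX9 (6.38 TPM), EPCAM (6.34 TPM), GATA6 (3.08 TPM) and HNF4A (0.809 TPM, rank 15041) followed. Neighbours in this order did not overlap in any library, except SOX9 and EPCAM, whose ranges crossed: the lowest SOX9 value was 5.82 TPM and the highest EPCAM value 7.34 TPM. The 3 genes without a row stand outside the order. CDX1 (chr5:150166795-150184558) and CDX2 (chr13:27962137-27971139) have 2 annotated transcripts each and VIL1 (chr2:218419092-218453295) has 5, in GRCh38 as for all genes here. The lowest row total in the table was 3 counts over the 6 libraries, so a gene with no row is not shown to be silent.

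**Figure D1:**
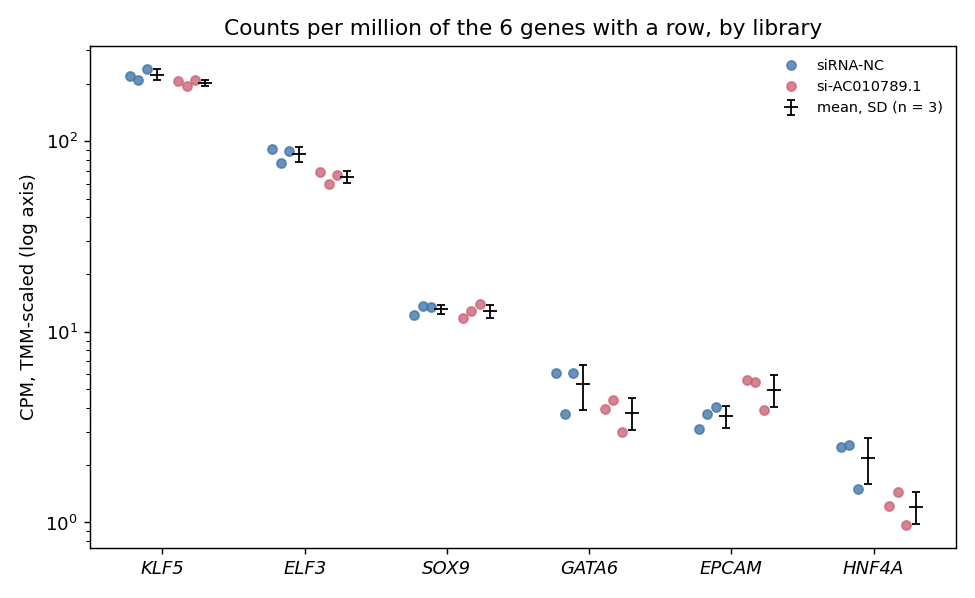
CPM (TMM-scaled, log axis) of the 6 genes with a row in each of the 3 siRNA-NC and 3 si-AC010789.1 libraries, as points, with the group mean and SD (n = 3) as a black mark with error bars beside them. KLF5 lies between 195 and 240.0 CPM and HNF4A between 0.972 and 2.56 CPM, and only ELF3, HNF4A and KLF5 have groups that do not overlap.

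The labels name a colorectal line, so its defining markers were compared. The keratins KRT8 and KRT18, which build the simple epithelial cytoskeleton, were abundant at 926 TPM and 541 TPM as means over the libraries, and so was the mucin MUC13 at 433 TPM. The colonic markers CDX1, CDX2, VIL1 and GPA33 had no row, nor had the keratin KRT19. E-cadherin (CDH1) reached only 8, 9 and 9 counts with siRNA-NC and 10, 10 and 13 counts with si-AC010789.1, and did not pass the filter on low counts. HCT116 is generally known as a line with EPCAM and E-cadherin at its surface, so the few counts of EPCAM and CDH1 and the missing KRT19 go against what the label leads one to look for. The study itself reports E-cadherin in HCT116 by western blot and qRT-PCR, and by immunofluorescence in stable knockdown cells. It describes E-cadherin as increased after knockdown of AC010789.1. The identity of the line was not tested. Fibroblast markers (6 of 12 with a row) summed to between 36.9 and 41.8 TPM with siRNA-NC and to between 31.6 and 38.9 TPM with si-AC010789.1, and PDGFRA, LUM and THY1 had no row. The most abundant of these, COL1A1, had means of 43.3 and 44.5 CPM (log2 fold change 0.04). PDGFRB had a log2 fold change of 0.06, and COL3A1 had means of 3.26 and 2.19 CPM. Leukocyte markers (3 of 12 with a row) summed to between 6.96 and 9.67 TPM with siRNA-NC and to between 3.79 and 7.99 TPM with si-AC010789.1, and PTPRC, CD3E and CD79A had no row. CD68, which is also expressed outside leukocytes, had means of 6.73 and 3.29 CPM (log2 fold change −1.03, adjusted p-value 0.181 in edgeR), and CSF1R and CD14 had means of at most 1.09 CPM. Their part in the results was not tested.

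The comparison of si-AC010789.1 with siRNA-NC asks whether the siRNA against AC010789.1 altered these genes. None of the 6 tested genes passed an adjusted p-value of 0.05, against 0.982% of all genes. The thresholds of the study (unadjusted p-value of 0.05 and absolute log2 fold change above 1) were also set on the edgeR fit. None of the 6 genes passed them, against 0.778% of all genes tested. The study used Cuffdiff and describes leaving out genes that differed significantly within a group, which was not done here. At an unadjusted p-value under 0.05 alone, 2 of the 6 passed (HNF4A and ELF3), against 17.2% of all genes. Of the 6 genes, 5 were fitted lower with si-AC010789.1 and EPCAM was fitted higher, and the median of their log2 fold changes was −0.27. HNF4A, ELF3 and KLF5, or 3 of the 6, had groups of CPM that did not overlap, all lower, against 25.1% of all genes in either direction and 12.9% lower. Overlap was judged on CPM, and which genes separated depended on the scale. As TPM, the groups of ELF3 (narrowly) and HNF4A overlapped. Those of KLF5 and GATA6 (both lower) and EPCAM (higher) did not. The share of all genes that separate as TPM was not computed. As TPM (SD, n = 3), ELF3 had means of 65.0 ± 2.16 and 56.0 ± 7.93 with siRNA-NC and si-AC010789.1, and HNF4A 1.10 ± 0.763 and 0.522 ± 0.138. KLF5 had 137 ± 6.13 and 124 ± 5.10, GATA6 3.71 ± 0.570 and 2.45 ± 0.413, and EPCAM 5.53 ± 0.537 and 7.15 ± 0.173. In bulk libraries, fewer cells that express a gene and less RNA per cell cannot be told apart.

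ELF3 (ENSG00000163435.15, chr1:202007945-202017188) was measured at 91.3, 76.8 and 88.8 CPM with siRNA-NC and at 68.7, 59.4 and 66.8 CPM with si-AC010789.1. Every si-AC010789.1 library lay below every siRNA-NC library, with means of 85.7 ± 7.73 and 65.0 ± 4.91 CPM (SD, n = 3). The log2 fold change was −0.40 (SE 0.092, 95% interval −0.62 to −0.18), with an adjusted p-value of 0.110 in edgeR. ELF3 did not pass with edgeR but passed with DESeq2, an alternative tool, at an adjusted p-value of 0.0208, and its adjusted p-value lay between 0.0208 and 0.256 over all alternatives. DESeq2 gave an adjusted p-value for 3 of the 6 genes, and none for HNF4A, EPCAM and GATA6. Over all genes it called 528 of the 9746 with an adjusted p-value. The antisense gene ELF3-AS1 overlaps ELF3 on the other strand and held 4, 12 and 9 counts with siRNA-NC and 3, 13 and 5 counts with si-AC010789.1, against 744 to 1184 counts of ELF3. Whether counting used the strand is not given in the sources used here.

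HNF4A (ENSG00000101076.16, chr20:44355700-44434596), a nuclear receptor that governs hepatocyte and enterocyte genes, gave 28, 34 and 20 counts with siRNA-NC and 14, 18 and 12 counts with si-AC010789.1. As CPM these were 2.48, 2.56 and 1.50 against 1.22, 1.44 and 0.972, with means of 2.18 ± 0.592 and 1.21 ± 0.233 (SD, n = 3), and the groups did not overlap. The log2 fold change of −0.84 (SE 0.31, 95% interval −1.58 to −0.10) did not pass, with an adjusted p-value of 0.241 in edgeR. KLF5 (ENSG00000102554.13, chr13:73054976-73077542), a zinc finger factor of the crypt, was measured at 220.1, 210.4 and 240.0 CPM with siRNA-NC and at 206, 195 and 209 CPM with si-AC010789.1. The groups again did not overlap, but by a small margin, and the log2 fold change was −0.14 (SE 0.061, 95% interval −0.28 to 0.01, adjusted p-value 0.321 in edgeR).

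EPCAM (ENSG00000119888.10, chr2:47345158-47387601) was the 1 gene of the 6 that was fitted higher. Its values were 3.10, 3.70 and 4.05 CPM with siRNA-NC and 5.59, 5.43 and 3.89 CPM with si-AC010789.1. The groups overlapped, since replicate 3 of si-AC010789.1 lay below replicate 3 of siRNA-NC, and the log2 fold change was 0.45 (SE 0.21, 95% interval −0.04 to 0.95, adjusted p-value 0.326 in edgeR). GATA6 (ENSG00000141448.8, chr18:22169443-22202528), a zinc finger factor of endoderm, gave 6.12, 3.70 and 6.08 CPM with siRNA-NC and 3.93, 4.39 and 3.00 CPM with si-AC010789.1. Replicate 2 of siRNA-NC lay among the values of the other group, and the log2 fold change was −0.49 (SE 0.26, 95% interval −1.11 to 0.13, adjusted p-value 0.398 in edgeR). SOX9 (ENSG00000125398.6, chr17:72121020-72126420) was measured at 12.2, 13.6 and 13.4 CPM with siRNA-NC and at 11.9, 12.9 and 13.9 CPM with si-AC010789.1. Its log2 fold change was −0.02 (SE 0.11, 95% interval −0.28 to 0.23, adjusted p-value 0.935 in edgeR), and the sign turned without replicate 2 of siRNA-NC (0.0050) or without replicate 1 of si-AC010789.1 (0.031). Exact two-sided permutation tests of CPM could give no p-value below 0.1 with 3 against 3 samples, and ELF3, HNF4A and KLF5 stood at that limit.

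**Figure D2:**
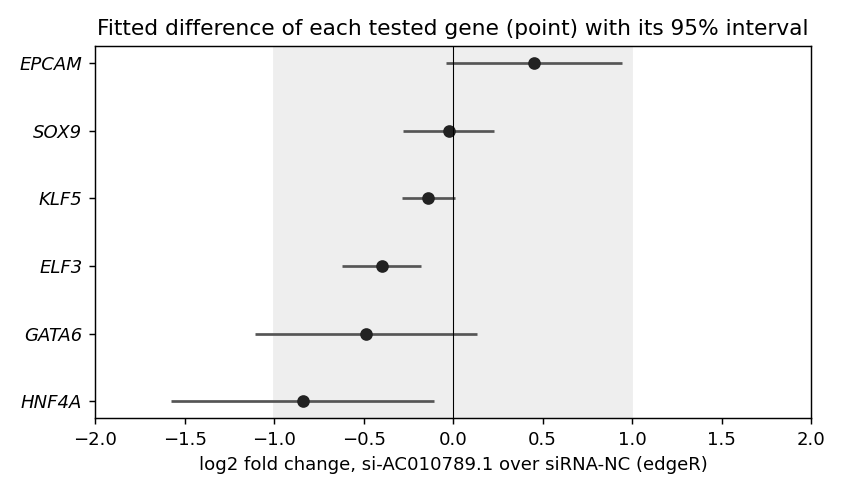
Fitted log2 fold change of si-AC010789.1 over siRNA-NC with its 95% interval from edgeR for each of the 6 tested genes (grey band, within a log2 fold change of 1). Intervals of ELF3 (−0.62 to −0.18) and HNF4A (−1.58 to −0.10) exclude 0 before adjustment, and those of the other genes include it.

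Spread between libraries differed among the genes. The highest CPM divided by the lowest was 1.17 for SOX9, 1.23 for KLF5, 1.54 for ELF3, 1.80 for EPCAM, 2.04 for GATA6 and 2.64 for HNF4A, with a median of 1.38 over all genes. HNF4A, GATA6 and EPCAM, which had the fewest counts, also had the widest spread.

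Transcripts were then examined, because the counts had been assigned to single annotated transcripts. Of the 25 transcripts of these genes with a row, 16 passed the filter and none was called with edgeR (0 also with DESeq2), against 0.0135% of 44281 transcripts tested. In simulated data, the transcript test called 0% of planted log2 fold changes of 1 and 2.99% of those of 2. The gene test called 71.6% of planted log2 fold changes of 1. The lack of calls therefore says little about transcript changes of that size. At an unadjusted p-value under 0.05, 1 of the 16 passed, against 5.74% of all transcripts tested. Groups of CPM did not overlap for 3 transcripts of these genes. The share over all transcripts was not computed, so that number has no background to be read against. ELF3-203, the main ELF3 transcript, gave 859, 834 and 910 counts with siRNA-NC and 632, 518 and 712 counts with si-AC010789.1, which did not overlap in CPM, with a log2 fold change of −0.44 (SE 0.17, adjusted p-value 0.862 in edgeR). GATA6-202 gave 26, 36 and 27 counts against 8, 19 and 17 counts, also without overlap (log2 fold change −0.98, adjusted p-value 0.870 in edgeR). GATA6-201, whose coding sequence is the same, gave 43, 13 and 54 counts against 37, 36 and 20 counts, and its groups overlapped. ELF3-201 gave 104, 37 and 145 counts against 81, 70 and 39, and ELF3-206, which has no annotated coding sequence, 21, 74 and 25 against 9, 74 and 12.

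KLF5 counts were split between 2 main forms in a way that set replicate 1 of both groups apart from the rest. KLF5-201 held 2241, 1248 and 1614 counts with siRNA-NC and 2125, 1257 and 1428 counts with si-AC010789.1, and KLF5-205 held 134, 1521 and 1574 against 121, 1175 and 1145. Replicate 1 of both groups was the library in which KLF5-205 was low, while KLF5 CPM there lay between those of the other 2 replicates. The non-coding KLF5-204 was high in the same libraries, with 107, 19 and 10 counts against 111, 4 and 5. Across the 6 libraries, KLF5-205 differed by 11.3-fold between its highest and lowest CPM, while the gene sum differed by 1.23-fold. The share of KLF5-201 differed by 3.87 percentage points between the group means, with an exact permutation p-value of 0.6. It ranged from −8.35 points without replicate 1 of si-AC010789.1 to 18.1 points without replicate 1 of siRNA-NC, and its sign also turned without replicate 2 or replicate 3 of siRNA-NC. The rule by which reads common to several transcripts were assigned is not given in the sources used here. It bears on single transcripts more than on gene sums, and over all transcripts the median ratio of highest to lowest CPM was 2.81, against 1.38 for genes.

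HNF4A counts were assigned to annotated P1 forms. The 4 annotated transcripts that start at P1 (between 44401270 and 44401301) each had a row and together held 126 counts, while the 5 that start at P2 (between 44355700 and 44355805) had none. The table holds no row under 3 counts in total, and the rule for reads common to several transcripts is not given. Which promoter was used was therefore not tested. Most of the P1 counts were HNF4A-201, with 26, 17 and 20 counts with siRNA-NC and 14, 16 and 2 counts with si-AC010789.1, which did not overlap in CPM. HNF4A-205 held 2, 17 and 0 counts against 0, 2 and 0. In replicate 3 of si-AC010789.1 the HNF4A-203 and HNF4A-204 transcripts each held 5 counts and they had no count in any other library. The share of HNF4A-201 differed by −12.4 percentage points between the groups (exact permutation p-value 0.7). Leaving out any 1 of the 6 libraries moved it by over 1.5 times, from −28.2 points without replicate 1 of si-AC010789.1 to 13.5 points without replicate 3 of si-AC010789.1, where the sign turned.

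**Figure D3:**
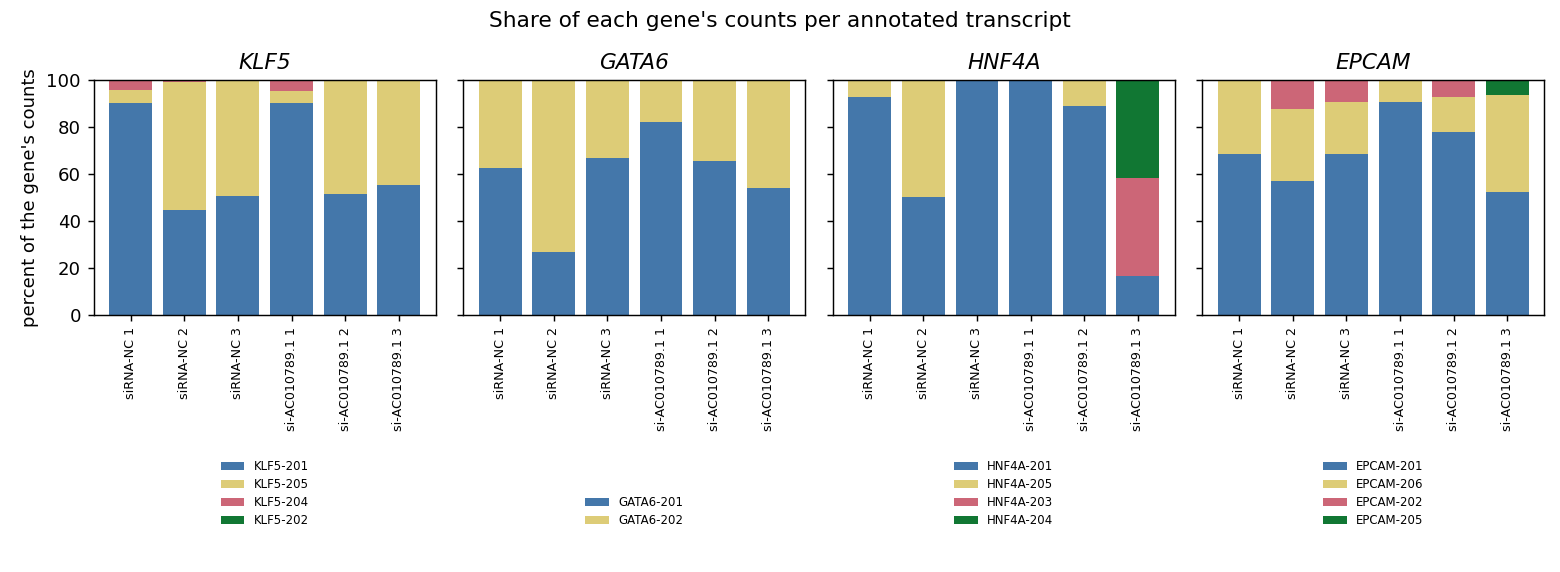
Percent of each gene's counts assigned to each annotated transcript, in the 6 libraries, for KLF5, GATA6, HNF4A and EPCAM. The KLF5-201 share is 90.3% (95% exact binomial interval 89.0 to 91.4) and 90.1% (88.8 to 91.3) in replicate 1 of siRNA-NC and si-AC010789.1, and between 44.7% (42.9 to 46.6) and 55.3% (53.4 to 57.3) in the other libraries.

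EPCAM-201 gave 24, 28 and 37 counts with siRNA-NC and 58, 53 and 25 counts with si-AC010789.1, whereas EPCAM-206, annotated as a retained intron, gave 11, 15 and 12 against 6, 10 and 20 counts. Replicate 3 of si-AC010789.1 was the library with the lowest EPCAM-201 count and the highest EPCAM-206 count of its group. SOX9-201 held all counts of SOX9.

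Other genes were counted from 9 lists, 214 listings in all. Besides genes of the intestinal programme, these hold the fibroblast and leukocyte markers and genes of stomach, pancreas and liver. None of the tested genes of the 9 lists passed an adjusted p-value of 0.05 with edgeR. Of 30 other intestinal transcription factors, 21 had a row and 18 were tested, 13 fitted lower and 5 higher (median log2 fold change −0.11). FOXA2, GATA4 and PDX1 had no row. ONECUT2, the most abundant of the list in CPM, had means of 152 ± 2.82 and 114 ± 9.84 CPM (SD, n = 3, log2 fold change −0.41, SE 0.070, adjusted p-value 0.0641 in edgeR), and passed only with DESeq2 among the alternatives. KLF3 and ETS2 had log2 fold changes of 0.08 each. KLF4, a factor of differentiating gut epithelium, had means of 81.5 ± 5.10 and 49.8 ± 19.7 CPM (log2 fold change −0.71, adjusted p-value 0.233 in edgeR). Without replicate 1 of si-AC010789.1 its log2 fold change was −1.09 with an adjusted p-value of 0.0229 in edgeR.

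Brush border genes had a row in 26 of 28 cases, and 22 were tested with 12 lower and 10 higher (median log2 fold change −0.049). ANKS4B and TMIGD1 had no row, and 4 genes, among them VILL, MYO1A and CDHR2, stayed under the filter. MYO1A gave 4, 5 and 6 counts with siRNA-NC and 8, 3 and 2 counts with si-AC010789.1. Whether a brush border programme was expressed was not tested. MYO1E, a myosin that moves along actin, was the most abundant, at 797 ± 11.8 and 730 ± 16.8 CPM, with a log2 fold change of −0.13 and an adjusted p-value of 0.173 in edgeR, followed by PLS3 (means of 533 and 498 CPM) and FSCN1 (414 and 457 CPM), both actin-bundling proteins, with log2 fold changes of −0.10 and 0.14. Of the absorptive genes, 25 of 34 had no row, among them FABP1, FABP2, APOA1, SI, KRT20 and CEACAM5, and 3 were tested. Of the 3, the alkaline phosphatase ALPI was measured at 364 ± 18.7 CPM with siRNA-NC and at 449 ± 21.6 CPM with si-AC010789.1 and had a log2 fold change of 0.30 (adjusted p-value 0.0752 in edgeR), passing only with DESeq2 among the alternatives. ANPEP, an aminopeptidase of the brush border, had means of 144 and 132 CPM (log2 fold change −0.13), and TSPAN8 of 6.74 and 5.64 CPM (log2 fold change −0.25). Alkaline phosphatases share near-identical sequence, so counts of ALPI are uncertain. Goblet and other secretory genes had a row in 10 of 28 cases, with 6 tested. MUC13, a membrane mucin, led them at 645 and 634 CPM (log2 fold change −0.03), followed by GALNT7 at 30.8 and 32.6 CPM and KLK1 at 1.79 and 2.30 CPM.

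**Figure D4:**
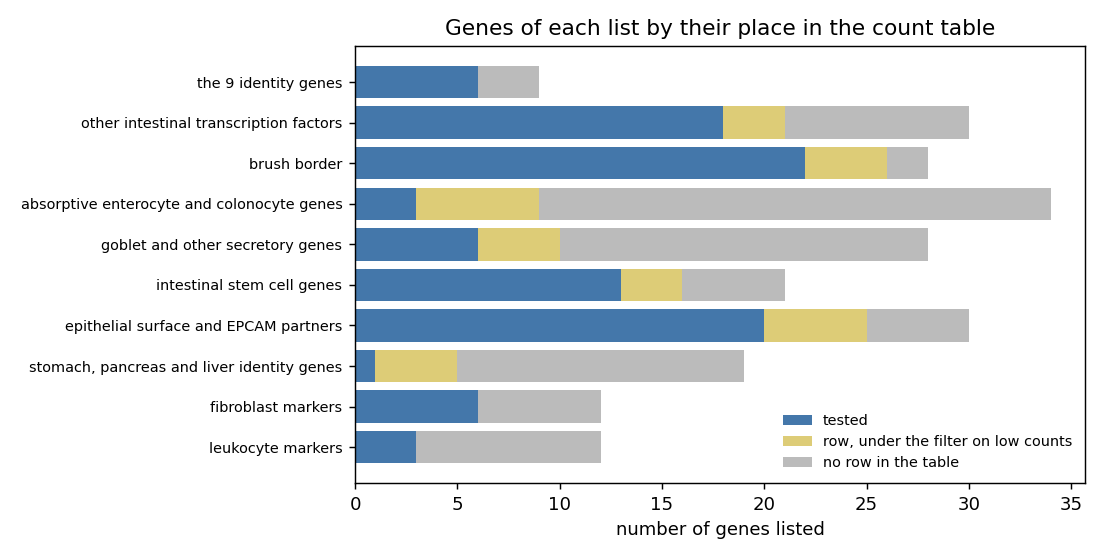
Number of genes in each list that were tested, had a row but stayed under the filter on low counts, or had no row. Of the identity genes, 6 of 9 had a row, of the brush border genes 26 of 28 and of the absorptive genes 9 of 34.

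Stem cell genes (13 tested of 21) and epithelial surface genes and EPCAM partners (20 tested of 30) had median log2 fold changes of −0.080 and 0.049. The leading stem cell genes were LGR4, a receptor of R-spondins, at 191 ± 95.8 and 119 ± 84.5 CPM (SD, n = 3), MSI2 at 188 and 159 CPM and NOTCH1 at 108 and 99.4 CPM. Among the epithelial surface genes, KRT8 had means of 719 and 534 CPM (log2 fold change −0.43, adjusted p-value 0.310 in edgeR), KRT18 of 395 and 419 CPM (log2 fold change 0.08), and CD9 of 237 and 216 CPM (log2 fold change −0.14, adjusted p-value 0.166 in edgeR). KRT8 and KRT18 overlap on opposite strands between 52948871 and 52949954 of chromosome 12. Reads from that stretch cannot be separated without knowledge of the strand. Stomach, pancreas and liver genes had a row in 5 of 19 cases and 1 was tested, CEBPA, at 4.70 and 4.44 CPM, while GKN1 and SERPINA1 stayed under the filter.

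**Figure D5:**
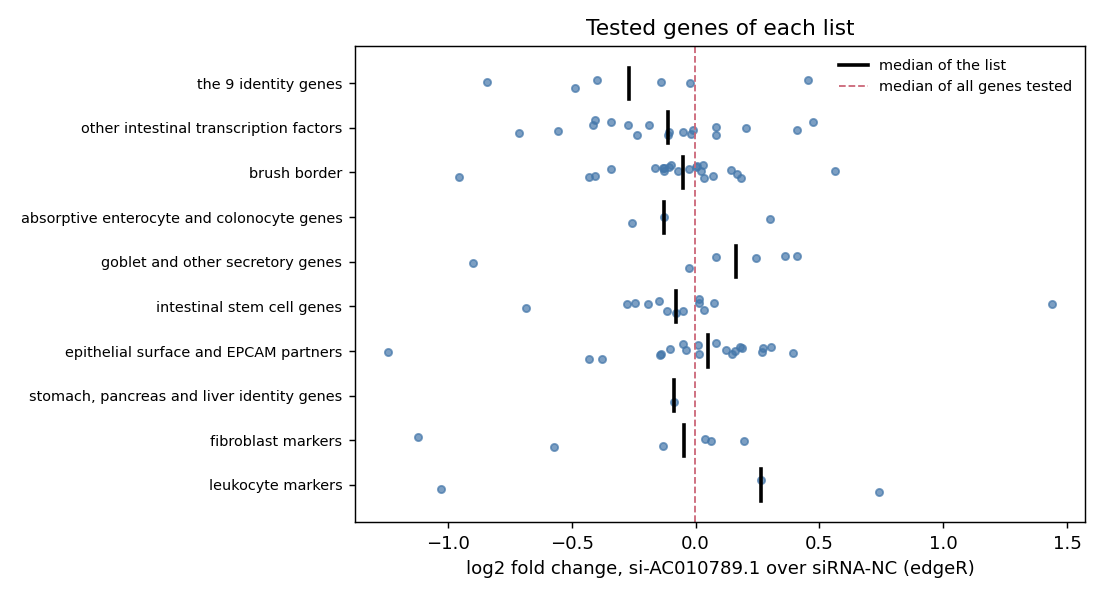
Log2 fold change of si-AC010789.1 over siRNA-NC for each tested gene of each list (points) with the median of each list, against the median of all genes tested (dashed line). The medians of the lists of identity genes (−0.27) and of other intestinal transcription factors (−0.11) are below the line, and no point passed the adjusted threshold with edgeR.

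The genes whose levels over the 6 libraries were most like those of a member were named for the 3 members with a mean of at least 10 CPM, among 9973 genes, with Pearson's r of log2(CPM + 1). For ELF3 these were CDKN2B (r = 0.994) and DRAM1 (r = 0.993), for SOX9 DHODH (r = 0.984) and FAM156B (r = 0.980), and for KLF5 RPS4XP11 (r = 0.999) and KLHL26 (r = 0.991). The points share their libraries, and 345 genes had r above 0.9 with ELF3, 52 with SOX9 and 102 with KLF5. RPS4XP11 is a processed pseudogene and FAM156B has a near-identical copy, so their counts are uncertain.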

How the data were processed

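RNA of HCT116 cells was made into TruSeq paired-end libraries, read on an Illumina NovaSeq. What the authors deposited were counts: whole numbers for each Ensembl transcript and library, with no normalization, and each listed transcript had at least 3 counts over the 6 libraries. The submitters' processing notes name CASAVA 1.8 and TopHat2 2.0.6 and the builds mm10 and GRCh38, without roles, and the study names Cuffdiff for differential expression. The counting program, its annotation and its use of strand are not given in the sources used here. The members and lists were chosen with earlier results of these data known.

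Counts were summed per gene through GENCODE 29, leaving out 104 transcripts that were not matched. Genes (filterByExpr, minimum count 10, minimum total 15) and transcripts were tested with edgeR 4.0.16 (TMM factors, quasi-likelihood test, Benjamini-Hochberg adjustment over all features) in R 4.3.3, with no covariate. Levels were CPM, and TPM computed from annotated lengths. Shares of transcripts and levels were compared by exact two-sided permutation. Coding starts were read from the GENCODE transcripts. Some list genes are not reported here.

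The text names all 9 members, for each other list the 3 genes with the highest mean CPM and any called, the 2 genes most like each member with at least 10 CPM, and the 3 transcripts with most counts per member. Others were chosen after their values were seen. NHERF1 and TROY, which are other names of listed genes, were left out. The alternatives were DESeq2 1.42.0, upper-quartile scaling, no filter, a minimum mean of 1 CPM, the replicate number as a block, and leaving out each library. Scripts were tested on simulated data. With 3 samples a group, intervals and floors cover the spread or counting error of these libraries only.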

Additional observations from a re-analysis of the deposited data

How the results depend on the processing

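The number of genes with an adjusted p-value under 0.05 depended on the setting: 135 in edgeR, 528 with DESeq2, 69 with no filter and between 12 and 37 when 1 library was left out. With the replicate number as a block it was 0. The study's remark on cell generations does not say that same-numbered libraries of both groups shared one, and KLF5-205 and KLF5-204 set replicate 1 of both groups apart. Over genes the numbers were not shown to pair the samples: same-numbered libraries deviated together with correlations of 0.0896, 0.0028 and 0.00033. The value of replicate 1 was the highest of any pair. Replicate 2 of siRNA-NC correlated best with replicate 3 of si-AC010789.1 (0.0789), and replicate 3 of siRNA-NC with replicate 2 of si-AC010789.1 (0.0189). ELF3 passed with DESeq2 (log2 fold change −0.40, adjusted p-value 0.0208), and its adjusted p-value ranged from 0.0208 to 0.256 over the alternatives. That made 1 member called of the 3 with an adjusted p-value in DESeq2, against 528 of 9746 genes. None was given for HNF4A, EPCAM and GATA6. The direction of HNF4A, EPCAM, ELF3, KLF5 and GATA6 was kept in 11 of 11 alternatives, and that of SOX9 in 9 of 11: it was 0.0050 without replicate 2 of siRNA-NC and 0.031 without replicate 1 of si-AC010789.1. With 1 library left out, the log2 fold change ranged from −1.05 to −0.70 for HNF4A, from −0.47 to −0.33 for ELF3 from −0.084 to 0.031 for SOX9, from −0.18 to −0.085 for KLF5, from 0.36 to 0.60 for EPCAM and from −0.69 to −0.34 for GATA6. Among the other intestinal transcription factors, 1 gene was called with DESeq2 (ONECUT2) and between 0 and 1 without 1 library (KLF4, without replicate 1 of si-AC010789.1), and among the absorptive genes 1 with DESeq2 (ALPI). With no filter, list medians also took in the genes that had stayed under it. They moved to −0.093 for brush border genes, 0.0045 for epithelial surface genes and −0.26 for stomach, pancreas and liver genes. The median of absorptive genes was −0.22, a change smaller than the SD over the fits that left out 1 library. The cause of these changes was not tested. Low counts limit HNF4A, GATA6 and EPCAM most.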

Other observations

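Among genes of the stem cell list that lie outside the named ones, TERT, the catalytic subunit of telomerase, gave 8, 13 and 17 counts with siRNA-NC and 28, 31 and 40 counts with si-AC010789.1. The groups did not overlap, and the log2 fold change was 1.44 (SE 0.28) with an adjusted p-value of 0.0836 in edgeR. CLDN4, a claudin of tight junctions, gave 290, 298 and 326 counts with siRNA-NC and 331, 4 and 22 counts with si-AC010789.1, so that replicate 1 of si-AC010789.1 stood with the control libraries (adjusted p-value 0.635 in edgeR). Both genes were chosen after their values were seen.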
